A study of Mus musculus with 6 samples.

Results

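Activation of satellite cells with reduced Yy1 RNA was described by setting the cultured Yy1 iKO library beside the freshly isolated Yy1 iKO library. These are 2 of the 6 samples of the series, and the comparison is read across 11596 genes with at least 1 scaled FPKM (fragments per kilobase of transcript, adjusted for library size) in either library. Satellite cells are the resident stem cells of skeletal muscle, and all samples came from adult mouse muscle. The fresh state (FISC) was taken straight after isolation. The activated state (ASC) had 36 h of culture in growth medium with serum. Both states held 1 polyadenylated RNA library from wild-type (WT) cells and 1 whose title reads iKO for Yy1. A YY1 immunoprecipitation library and an input library were made from ASC, with C57 in their titles. The labels state neither the Cre driver, the inducing agent and the age, nor how many animals were pooled. Each group held 1 library, so no value below has a replicate check, and every comparison describes these libraries.

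In adult muscle, satellite cells rest in a quiescent state until injury or isolation activates them. Activated cells leave quiescence, build ribosomes and mitochondria, replicate their DNA and divide, while genes of the dissociation response and of the quiescent state decline. YY1 is a zinc finger transcription factor that can activate or repress genes, and its binding sites lie mostly in promoters, including those of many genes for mitochondrial and ribosomal proteins.

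Yy1 itself was measured first. Its locus lies at 110031521 to 110054842 of chromosome 12 in mm9. The Yy1 level was 20.1 scaled FPKM in FISC iKO and at 1.42 in ASC iKO, beside 49.6 in FISC WT and 42.0 in ASC WT. The transcript was thus lower in both iKO libraries than in both WT libraries, and lowest in ASC iKO. Its activation ratio was −3.13 in iKO and −0.23 in WT on the log2 scale. The fresh iKO library therefore still held Yy1 RNA, and the iKO activation described here starts from a reduced Yy1 level and ends at a lower one.

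The satellite cell label was checked against markers. In FISC iKO, the transcription factors Pax7 and Myf5 stood at 78.3 and 150 scaled FPKM, the cadherin Cdh15 at 153, and the calcitonin receptor Calcr at 43.8. The surface protein genes Vcam1, Sdc4, Itga7 and Cd34 stood at 270, 1190, 125 and 39.7. In ASC iKO, Myod1, the determination factor of activated myoblasts, stood at 418, and Mki67, a proliferation marker, at 7.85. Myog, the differentiation factor, was listed at 0 in both ASC libraries. All 8 satellite cell markers were thus present in FISC iKO, and ASC iKO held 2 of 3 markers of activated cells.

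Other cell types were measured in the same way, by the summed scaled FPKM of every gene of each list in FISC iKO and then in ASC iKO. The sum went from 496 to 0.0393 for 7 erythroid genes, with the alpha and beta globin genes listed at 0 in both ASC libraries, and from 375 to 0 in WT. It went from 514 to 21.0 for 13 fibroblast genes (536 to 40.6 in WT), from 813 to 125 for 10 pericyte and smooth muscle genes (832 to 157 in WT), and from 33.9 to 8.70 for 12 endothelial genes (42.4 to 11.2 in WT). For 16 immune genes it went from 16.5 to 13.4 in iKO and from 14.98 to 3.76 in WT. Of these, 6 were listed at 0 in both ASC libraries, among them Ptprc, Adgre1 and C1qa, while Cd14 stood at 6.82 in ASC iKO and 2.14 in ASC WT. In bulk RNA, fewer cells of a type and less RNA per cell cannot be told apart, and the part of these cells in the changes below was not tested. The Y-linked genes Ddx3y and Eif2s3y stood at 28.3 and 12.6 in FISC iKO and 60.5 and 26.4 in FISC WT, and were listed at 0 in both ASC libraries. Xist, the noncoding RNA of the inactive X chromosome, stood at 65.4 and 21.8 in the iKO pair and at 60.6 and 74.3 in the WT pair. Both fresh libraries thus held Xist and Y-linked RNA, and these levels differed between genotypes as well as states. For genes that differ between the sexes, sex cannot be told apart from culture or genotype. Rn45s, the ribosomal RNA precursor, stood at 1289 and 610 in the iKO pair and at 369 and 669 in the WT pair, and its part was not tested. The states stand in separate tables whose normalization may differ, and all 4 libraries were therefore scaled to 1 upper quartile.

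In cultured iKO cells 2646 genes, or 22.8% of 11596, were at least 2-fold higher than in fresh iKO cells, and 3210, or 27.7%, were at least 2-fold lower, which together made 50.5%. In WT 2605 of 11639 genes, or 22.4%, were higher and 2505, or 21.5%, were lower, together 43.9%. A gene counted when log2((ASC + 1)/(FISC + 1)) of scaled FPKM reached 1 in size, which sets a size and tests nothing. The added 1 understates the change of low genes. More genes were lower than higher in iKO, and the counts of higher and lower genes were closer in WT. Of the calls in WT 51.0% were higher, and this became 68.1% when libraries were scaled to the same FPKM sum and 45.5% when scaled by the median ratio, while the iKO share of 45.2% went to 45.8% and 45.3%.

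The 2 activations were compared over 11923 genes with at least 1 scaled FPKM in any of the 4 libraries, of which 22.2% were called higher and 26.9% lower in iKO. Across these genes the iKO and WT ratios had a Pearson r of 0.88 and a Spearman rho of 0.87, and 83.9% had the same sign. The pairs share no library, but genes are not independent replicates and share the tables' gene models and scaling. The median ratio was −0.09 in iKO and 0.07 in WT. The spread across genes was 1.58 in iKO and 1.49 in WT (SD of log2 ratios).

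**Figure D1:**
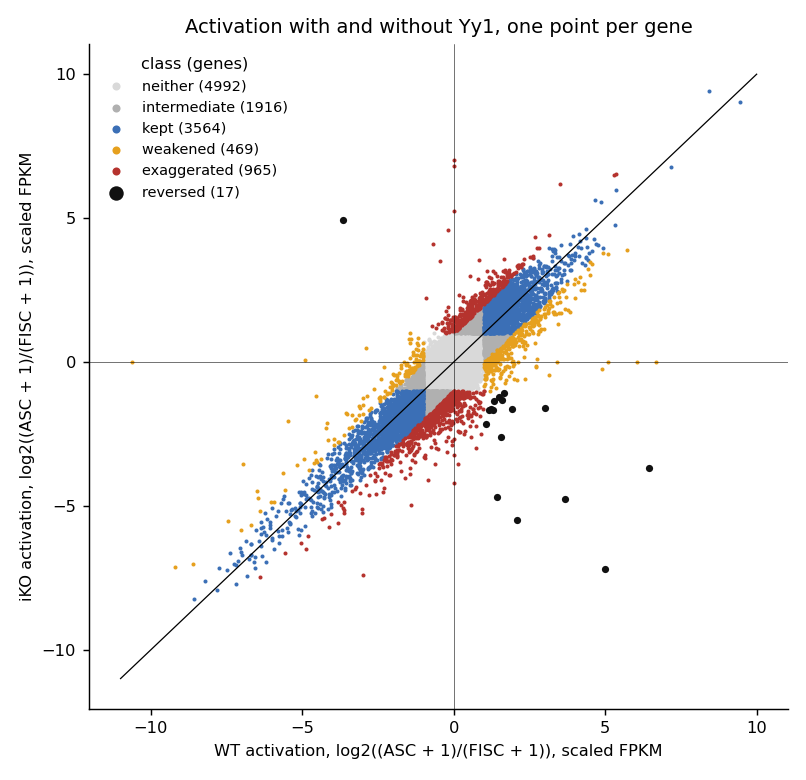
WT activation (x axis) against iKO activation (y axis) for 11923 genes, both as log2((ASC + 1)/(FISC + 1)) of scaled FPKM, coloured by class, with the line of equal activation. Kept genes (1656 upward, 1908 downward) lie along the line, and the 16 and 1 reversed genes, in black, lie at least 2-fold on opposite sides in the genotypes.

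Genes were sorted by both ratios and their difference, iKO minus WT. A gene was kept when both ratios reached 2-fold in the same direction and differed by less than 2-fold. It was weakened when WT reached 2-fold and the iKO ratio fell short of it by at least 2-fold, and exaggerated when iKO reached 2-fold and exceeded the WT ratio by at least 2-fold. Kept genes numbered 1656 upward (13.9% of 11923) and 1908 downward (16%). Weakened genes numbered 320 upward (2.68%) and 149 downward (1.25%). Exaggerated genes numbered 348 upward (2.92%) and 617 downward (5.17%), of which 124 and 173 were already 2-fold changed in WT. Reversed genes numbered 16 upward in WT (0.134%) and 1 downward in WT (0.00839%).

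Seen from WT activation, 63.6% of the genes at least 2-fold higher were kept, 12.3% weakened and 4.76% exaggerated. Of the genes at least 2-fold lower in WT, 76.2% were kept, 5.95% weakened and 6.91% exaggerated. The remainder were intermediate, past 2-fold in 1 genotype only with a difference under 2-fold, or reversed. Intermediate genes numbered 1031 upward (8.65%) and 885 downward (7.42%). The difference between the activations reached 2-fold upward in 596 genes (5%) and downward in 1130 genes (9.48%). The upward share of these differences was 34.5%, but 6.42% under FPKM-sum scaling and 48.4% under median-ratio scaling.

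The kept part of activation held the decline of stress-induced genes, and whether dissociation had raised them in the fresh cells was not tested. Of 29 immediate early genes, which are induced within minutes of a stimulus, 28 were at least 2-fold lower in ASC iKO, and 25 of these were kept. The median ratio of the list was −4.16 in iKO and −4.51 in WT. Fos, a subunit of the AP-1 transcription factor, stood at 1253 scaled FPKM in FISC iKO and 3.21 in ASC iKO, and at 888 and 1.34 in the WT pair. Its ratio was −8.22 in iKO and −8.57 in WT, and both fresh libraries stood far above both cultured ones. Fosb, Atf3 and Nr4a1, also stress-induced transcription factors, had iKO ratios of −7.92, −7.02 and −7.16.

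Part of the heat shock list declined in both genotypes as well. Hspa1a, an inducible HSP70 chaperone, stood at 1258 scaled FPKM in FISC iKO and 5.45 in ASC iKO, and at 1054 and 2.57 in WT. Its copy Hspa1b had an iKO ratio of −7.06, and the summed pair had −7.32 in iKO and −7.62 in WT. Of 19 heat shock genes, 11 were lower in iKO and all 11 were kept, with list medians of −1.33 in iKO and −1.18 in WT. Of 19 genes of the unfolded protein response, 11 were lower in iKO and 8 were kept. Hspa5, the chaperone BiP, went from 3520 to 422 in iKO and from 3367 to 401 in WT.

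The decline of quiescence genes was kept as well, with medians of −3.17 in iKO and −3.25 in WT, and 27 of 29 genes at least 2-fold lower in iKO. The Notch receptor gene Notch3 had a ratio of −6.03 in iKO and −5.12 in WT, and counted as exaggerated with a pseudocount of 0.1 or FPKM-sum scaling. The Notch targets Heyl and Hey1 had −5.06 and −3.97 in iKO beside −5.24 and −3.68 in WT. The signalling inhibitor Spry1 had −3.17 in iKO and −3.43 in WT. Among the 29 genes, 22 were kept, 5 exaggerated downward and 1 weakened. The weakened one was Cd34, a surface sialomucin whose locus overlaps another symbol, with −0.32 in iKO and 1.23 in WT.

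Inflammatory genes declined in both genotypes. All 21 measured genes of the IL-6 family list except Il11 were at least 2-fold lower in iKO, with medians of −2.72 in iKO and −2.57 in WT. Of 26 interferon response genes, 21 were lower and 18 kept, with medians of −1.92 and −2.02. Of 19 genes of NF-kB, the transcription factor of inflammation, and its feedback, 17 were lower and 14 were kept downward. Serping1, a complement inhibitor, had a ratio of −7.70 in iKO and −7.20 in WT.

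Of the 10 genes with the highest iKO ratios that could be named, 6 were kept and 4 exaggerated. The exaggerated ones were Cst6, with 4.41 in iKO and 3.15 in WT, and Atp6v0c-ps2, BC002163 and Eno1b, which share a listed locus with another symbol. Cst6 counted as kept under FPKM-sum scaling and after centring on locus length. Summed with its copy Atp6v0c, Atp6v0c-ps2 had −0.25 in iKO and −1.10 in WT and was not exaggerated. Eno1b summed with Eno1 was kept, at 2.17 and 2.96. BC002163 summed with Ndufs5 stayed exaggerated, at 2.51 and 1.01. Among the kept ones, Spp1, the gene of the secreted protein osteopontin, stood at 1.31 scaled FPKM in FISC iKO and 1574 in ASC iKO, and at 1.56 and 879 in WT. Its ratio of 9.41 in iKO beside 8.42 in WT lay just inside the kept range, and with a pseudocount of 0.1 or median-ratio scaling Spp1 counted as exaggerated. Asns, asparagine synthetase, stood at 2.72 and 185 in the iKO pair and at 5.13 and 156 in the WT pair, with ratios of 5.65 and 4.68. It too counted as exaggerated under those 2 alternatives. Tnnt2, a cardiac and embryonic troponin T gene, had 5.57 in iKO and 4.88 in WT. Hmga2, a chromatin protein of proliferating progenitors with an overlapping locus, had 4.77 and 5.32. Gmnn, the licensing inhibitor geminin, had 4.46 and 4.13. Outside these 10 genes, Fkbp11, a secretory pathway protein, was also kept upward, at 4.21 and 4.16.

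**Figure D2:**
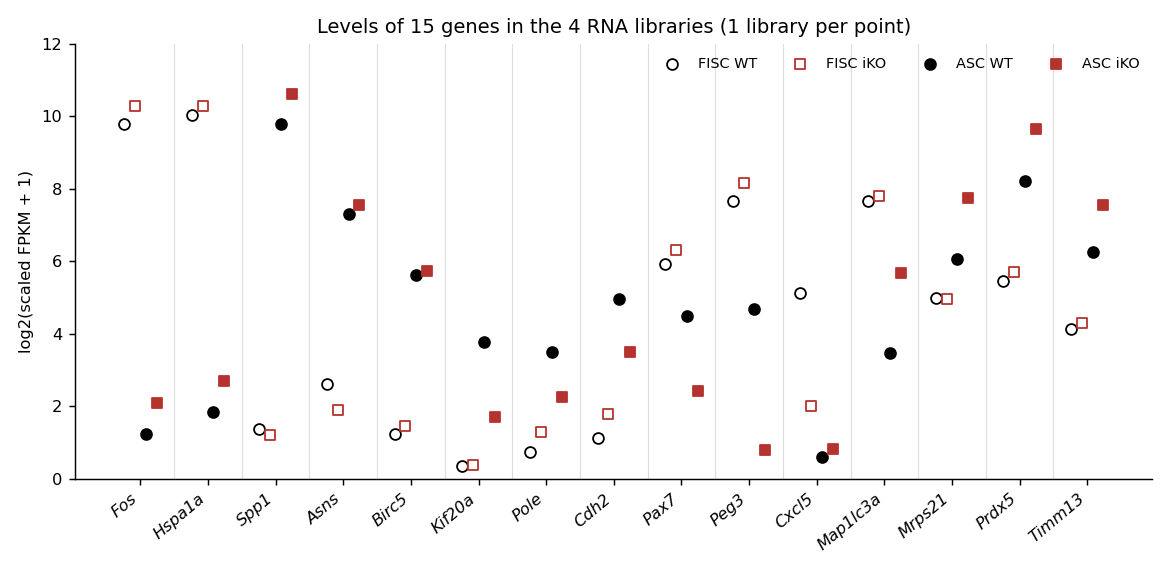
Levels of 15 genes as log2(scaled FPKM + 1) in the 4 RNA libraries, FISC open and ASC filled, WT as circles and iKO as squares. Fos and Hspa1a lie under 3 in both ASC libraries, Kif20a, Pole and Cdh2 reach a lower level in ASC iKO than in ASC WT, and Mrps21, Prdx5 and Timm13 reach a higher one.

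The weakened part of activation was led by genes of cell division. All 40 G2/M and mitosis genes were measured, and 37 were at least 2-fold higher in ASC iKO beside 39 in WT, yet 20 of the 40 were weakened and 18 kept. The list median was 2.26 in iKO and 3.38 in WT, and the median difference of −0.99 ranged from −1.41 to −0.90 over the alternatives. The difference was below 0 for 39 of 40 genes, beside 6851 of all 11923 genes.

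Kif20a, a kinesin of the central spindle with an overlapping locus, stood at 0.306 scaled FPKM in FISC iKO and 2.28 in ASC iKO, and at 0.274 and 12.8 in WT. Its ratio was 1.33 in iKO and 3.43 in WT. Prc1, which bundles spindle microtubules, went from 2.15 to 9.24 in iKO and from 1.43 to 27.5 in WT. Anln, a cytokinetic ring protein, went from 0.463 to 5.78 in iKO and from 0.344 to 20.7 in WT. Bub1b, a spindle checkpoint kinase, went from 5.63 to 6.05 in iKO and from 4.27 to 15.1 in WT. In all 4 genes ASC WT was the highest library, and the fresh libraries differed by less than the cultured ones. Not all mitotic genes were weakened. Birc5, a chromosomal passenger protein, had 4.30 in iKO and 4.38 in WT, and Cdk1, the mitotic kinase, had 3.98 and 4.41, although it counted as weakened with a pseudocount of 0.1. Pttg1, the anaphase inhibitor securin, was the 1 gene with a difference above 0.

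Genes of G1/S and DNA replication held fewer weakened members. Of 46, 40 were at least 2-fold higher in iKO and 44 in WT, with 34 kept and 9 weakened, and the medians were 2.11 and 2.59. Pole, the catalytic subunit of DNA polymerase epsilon, stood at 1.45 and 3.78 in the iKO pair and at 0.648 and 10.3 in the WT pair. Fen1, the flap endonuclease, had 1.75 in iKO and 3.29 in WT. Mcm4, a subunit of the replicative helicase, had 0.59 in iKO and 2.01 in WT. Pola1, of DNA polymerase alpha, had 0.07 and 1.38, and lost the class once locus length was centred. Rrm2, Uhrf1 and Tk1, of nucleotide supply and replication, were kept at 4.06, 4.11 and 3.80 in iKO, but Rrm2 and Uhrf1 counted as weakened under FPKM-sum scaling.

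Among regulators of the G1 phase, Ccnd1 and Cdk4 were kept and Cdk6 was not. Ccnd1, cyclin D1, had 2.96 in iKO and 2.82 in WT, and its partner Cdk4 had 1.88 and 2.02. Cdk6 stood at 1.01 and 1.27 in the iKO pair and at 0.692 and 7.48 in the WT pair. Rbl1, the pocket protein p107, had 1.56 in iKO and 3.01 in WT. The inhibitor genes Cdkn2a and Cdkn2b were exaggerated upward, with 2.16 beside 0.70 and 1.93 beside 0.46. Cdkn1a, the inhibitor p21, went from 501 to 280 in iKO and from 473 to 173 in WT. Ccnd3, cyclin D3 with an overlapping locus, had −2.21 in iKO and −0.85 in WT.

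Glycolysis genes lay somewhat lower beside WT. Of 24 glycolysis and lactate transport genes, 6 were higher and 8 lower in iKO beside 8 and 7 in WT. Over all genes the shares were 22.2% higher and 26.9% lower in iKO, and 21.8% and 21% in WT. The difference was below 0 in 21 of the 24, beside 6851 of all 11923 genes. Its median was −0.38 in the list and −0.13 over all genes. Pgk1 was kept, from 73.8 to 344 in iKO and from 75.2 to 367 in WT. Pgam1, Pkm and Eno3 were kept as well, at 2.07, 1.49 and 1.76 in iKO. Tpi1, triosephosphate isomerase with an overlapping locus, had 0.43 in iKO and 1.55 in WT. Gapdh had −0.11 and 0.48. Eno1 had 1.13 in iKO and 2.97 in WT, but reads may be split with the near-identical Eno1b, which stood at 260 in ASC iKO and 0.662 in ASC WT. Summed, the 2 enolase genes had 2.17 in iKO and 2.96 in WT and counted as kept. Slc16a3, the lactate exporter MCT4, was exaggerated downward, with −2.81 in iKO and −1.40 in WT.

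Focal adhesion and cytoskeleton genes also lay lower beside WT, with a median difference of −0.32 beside −0.13 over all genes. Of 36, 4 were weakened upward and 3 exaggerated downward, beside 2.68% and 5.17% of all genes. Of 24 integrin and laminin genes 1 was weakened upward and 3 exaggerated downward, beside the same all-gene shares. Their median difference of −0.26 became 0.00 after centring on locus length. Cdh2, N-cadherin, of the satellite cell surface list, stood at 2.41 and 10.3 in the iKO pair and at 1.16 and 30.02 in the WT pair. Itga6, an integrin alpha chain that binds laminin and the weakened gene of its list, had 1.08 in iKO and 2.81 in WT. Tns3, tensin 3, of the focal adhesion list, had 2.97 and 4.16, and counted as kept once locus length was centred. Vcl, vinculin, which links integrins to actin, stood at 23.7 and 0.427 in the iKO pair and at 24.6 and 13.2 in the WT pair. The ratio of Vcl was −4.11 in iKO and −0.85 in WT. Among genes with the largest differences, Fam57a had −0.13 in iKO and 2.71 in WT. Prkar2a, a regulatory subunit of protein kinase A, had −0.59 and 1.99.

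The 149 genes weakened downward had a smaller decline in culture in iKO. Of 6 metallothionein genes 1 was in this class, of 35 autophagy and lysosome genes 3, and of 28 p53 target genes 2, beside 1.25% of all genes. Mt2, a metallothionein that binds zinc, stood at 4278 and 29.9 scaled FPKM in the iKO pair and at 5509 and 8.43 in the WT pair. Its ratio was −7.11 in iKO and −9.19 in WT, so that a very large decline remained, while its neighbour Mt1 was kept downward. Map1lc3a, an LC3 protein of the autophagosome, had −2.13 in iKO and −4.19 in WT. Gabarap and Sqstm1, also of autophagy, ended at 140.4 and 366 in ASC iKO beside 55.3 and 199 in ASC WT, but both lost the class under FPKM-sum scaling and after centring on locus length. Fas, a death receptor, had −4.49 in iKO and −6.49 in WT. Gadd45a, a DNA damage response gene with an overlapping locus, had −1.81 and −3.52. Ndrg1, a hypoxia and stress gene, had −3.87 and −5.65.

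For the chemokines weakened downward the difference stood in the fresh cells. Of 20 measured chemokine genes, 13 were at least 2-fold lower in iKO and 16 in WT, and 5 were weakened. Cxcl3, a neutrophil attractant, stood at 8.19 in FISC iKO and 101 in FISC WT, and at 1.21 and 1.32 in the ASC libraries. Cxcl5 stood at 2.99 and 34.04 in FISC iKO and WT, and at 0.745 and 0.510 in ASC iKO and WT. Cxcl2 stood at 70.1 in FISC iKO and 251 in FISC WT. Over the list the median iKO to WT log2 ratio was −0.54 in FISC and 0.00 in ASC. For Cxcl2, Cxcl3 and Cxcl5 the cultured libraries thus lay close together and the fresh iKO library lay below the fresh WT library. Cxcl1 and Ccl2 also stood lower in the fresh iKO library, at 1123 and 262 beside 2407 and 523 in FISC WT. Of the 20 chemokine genes, 17 had a difference above 0 and 3 below it. Some other chemokines did not follow this fresh-cell pattern. Ccl25 was exaggerated upward, at 1.46 and 9.69 in the iKO pair and 1.83 and 3.39 in the WT pair. Cxcl12, the ligand of CXCR4, stood at 89.6 in ASC iKO and 157 in ASC WT, and Cxcl13 at 4.02 in FISC iKO and 1.75 in FISC WT.

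Upward exaggeration was found among genes of the mitochondrial ribosome, the respiratory chain, mitochondrial import and the proteasome, but not in every mitochondrial list. Of 77 mitochondrial ribosomal protein genes, 68 were at least 2-fold higher in iKO beside 57 in WT, with medians of 2.205 and 1.46. The class was exaggerated for 21 of them and kept for 43. Mrps21, of the small mitochondrial subunit, stood at 29.8 and 213 scaled FPKM in the iKO pair and at 30.5 and 66.2 in the WT pair. Its ratio was 2.79 in iKO and 1.09 in WT. Mrpl22, of the large subunit, had 4.33 and 2.70. Both stayed exaggerated under all 7 alternatives.

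Respiratory chain genes showed the same order. Of 36 genes of complex I, which oxidises NADH, 29 were higher in iKO and 16 in WT, with medians of 1.69 and 0.89. Of 41 genes of complexes II to IV and ATP synthase, 28 were higher in iKO and 8 in WT, with medians of 1.43 and 0.67. Ndufs6, of complex I, went from 42.4 to 290 in iKO and from 39.6 to 112 in WT. Cox6c, of complex IV, went from 188 to 592 in iKO and from 186 to 227 in WT. The fresh libraries were alike and ASC iKO stood highest. Not every subunit followed, with Sdha at 0.42 and 0.63 and Atp5b at 0.45 and 0.45 in iKO and WT. Of 20 citric acid cycle genes none differed 2-fold upward and 3 did downward, with a median difference of −0.19. These included Suclg2 and Idh2, which had −1.25 and −1.17 in iKO beside 0.54 and −0.13 in WT, and each lost the exaggerated class under 1 alternative. Fatty acid oxidation genes had a median difference of −0.01, which turned above 0 under median-ratio scaling. Among 13 regulators of mitochondrial biogenesis the median difference was −0.21, none differed 2-fold between the activations, and Tfam, the mitochondrial DNA packaging factor, had 0.65 in iKO and −0.08 in WT.

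Protein import and degradation genes followed. Of 22 mitochondrial import genes, 20 were higher in iKO and 10 in WT, with medians of 1.94 and 0.84. Timm10, a chaperone of the intermembrane space, went from 35.2 to 144 in iKO and from 42.7 to 64.3 in WT. Of 37 proteasome genes, 32 were higher in iKO and 23 in WT, with medians of 1.83 and 1.21. Psmb3, a core subunit, went from 65.1 to 458 in iKO and from 64.3 to 197 in WT. Ndufs6, Cox6c, Timm10 and Psmb3 were exaggerated here and lost that class under FPKM-sum scaling, and Timm10 also lost it after centring on locus length. The immunoproteasome gene Psmb8 was kept downward, at −1.84 and −1.31, but became exaggerated after centring on locus length.

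For cytosolic ribosomal protein genes the median ratio lay below 0 in WT but not in iKO, except after centring on locus length. At least 2-fold lower were 15 of 83 genes in WT and 1 in iKO, beside 21% and 26.9% of all genes. Over 83 genes the median ratio was −0.76 in WT and 0.12 in iKO, and the iKO value was −0.40 once locus length was centred. The WT value ranged from −0.89 to −0.30 over the alternatives. The difference was above 0 in 82 of 83 genes, beside 5072 of all 11923 genes, and reached 2-fold in 19. Rpl38 stood at 2830 and 3909 in the iKO pair and at 2546 and 1417 in the WT pair. Rpl22l1 stood at 640 and 1046 in iKO and at 612 and 312 in WT. The 1 gene with a difference below 0 was Rps27, which shares a locus with the near-identical Rps27rt. Summed, the 2 had −0.41 in iKO and −1.33 in WT.

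Several single genes outside these complexes were exaggerated upward. The antioxidant genes Prdx5 and Txn1 stood at 809 and 864 in ASC iKO beside 297 and 366 in ASC WT, with fresh iKO levels of 51.4 and 157. Bax, a pro-apoptotic member of the BCL2 family and p53 target, had 3.33 in iKO and 2.19 in WT. Nme1, a nucleoside diphosphate kinase, had 3.37 and 2.12. Prdx5, Txn1, Bax and Nme1 counted as kept under FPKM-sum scaling, and Prdx5 and Bax also after centring on locus length. Krt18, an epithelial keratin, stood at 0.285 and 14.1 in the iKO pair and at 0.747 and 2.14 in the WT pair. Krt18, Cgref1, a growth regulator, and Serf1 stayed exaggerated under all 7 alternatives, with differences of 2.71, 2.44 and 2.06.

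The exaggerated part downward held regulators of muscle identity. None of 18 measured myogenic transcription factors was at least 2-fold higher in iKO and 10 were lower, 5 of them exaggerated. In WT 2 were higher and 10 lower, and the list medians were −1.28 in iKO and −1.12 in WT. Pax7, the defining factor of satellite cells, stood at 78.3 and 4.33 scaled FPKM in the iKO pair and at 60.1 and 21.6 in the WT pair. Its ratio was −3.90 in iKO, a 14.9-fold decline, and −1.44 in WT. Myf5 went from 150 to 19.8 in iKO and from 122 to 34.9 in WT, and counted as kept under median-ratio scaling. Mef2d had −2.82 in iKO and −1.55 in WT, Six4 −1.64 and 0.25, and Eya4 −2.88 and −1.48. Myod1 was not called in either genotype, at −0.41 and 0.41. The surface receptor gene Fgfr4 had −5.08 in iKO and −3.67 in WT.

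Imprinted genes had a median difference as low as that of G2/M genes, at a value of −0.99 that ranged from −1.32 to −0.49 over the alternatives. Of 22 measured, 15 were lower in iKO and 13 in WT, and 9 were exaggerated downward. Peg3, a zinc finger gene that overlaps Peg3os, stood at 286 and 0.713 in the iKO pair and at 203 and 24.4 in the WT pair. Its ratio was −7.39 in iKO and −3.01 in WT. Peg10, a retroelement-derived gene, had −2.47 in iKO and −0.52 in WT. Igf2, a growth factor with an overlapping locus, had −5.14 and −3.64. H19, a noncoding RNA of the same imprinted region with an overlapping locus, was weakened upward, at 20.7 and 22.1 in iKO and 10.3 and 75.3 in WT. Meg3, a noncoding RNA with an overlapping locus, was kept at −6.70 and −6.98.

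Sterol and fatty acid synthesis genes had lower ratios in iKO than in WT. Of 28 genes none was higher in iKO, 17 were lower beside 10 in WT, and 8 were exaggerated, with medians of −1.24 and −0.72. Srebf2, the transcription factor of sterol synthesis with an overlapping locus, went from 110 to 11.6 in iKO and from 83.4 to 34.3 in WT. Idi1, an enzyme of the pathway, had −2.99 in iKO beside −1.38 in WT. The iKO ratios thus lay below the WT ratios for both genes.

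Further genes exaggerated downward came from several lists. Clcn5, a chloride transporter with an overlapping locus, and Arhgap5 had differences of −3.19 and −2.96, and both counted as reversed under FPKM-sum scaling. Il6st, the shared receptor gp130, had −3.24 in iKO and −1.96 in WT, and the IL-6 family ligand Clcf1 had −4.42 and −3.26. Notch2 had −1.80 and −0.55, but was not called once locus length was centred. Lamc1, a laminin chain, had −2.64 and −1.19. Spred2, an inhibitor of RAS signalling, stood at 11.6 and 1.24 in the iKO pair and at 11.5 and 22.2 in the WT pair, and counted as reversed under FPKM-sum scaling and after centring. Crebbp, the acetyltransferase CBP, went from 18.7 to 0.789 in iKO and from 22.7 to 8.66 in WT. Hcfc1, a cofactor reported to bind YY1, had −1.06 and 0.45. Ern1, a sensor of the unfolded protein response, had −1.91 and 0.21.

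**Figure D3:**
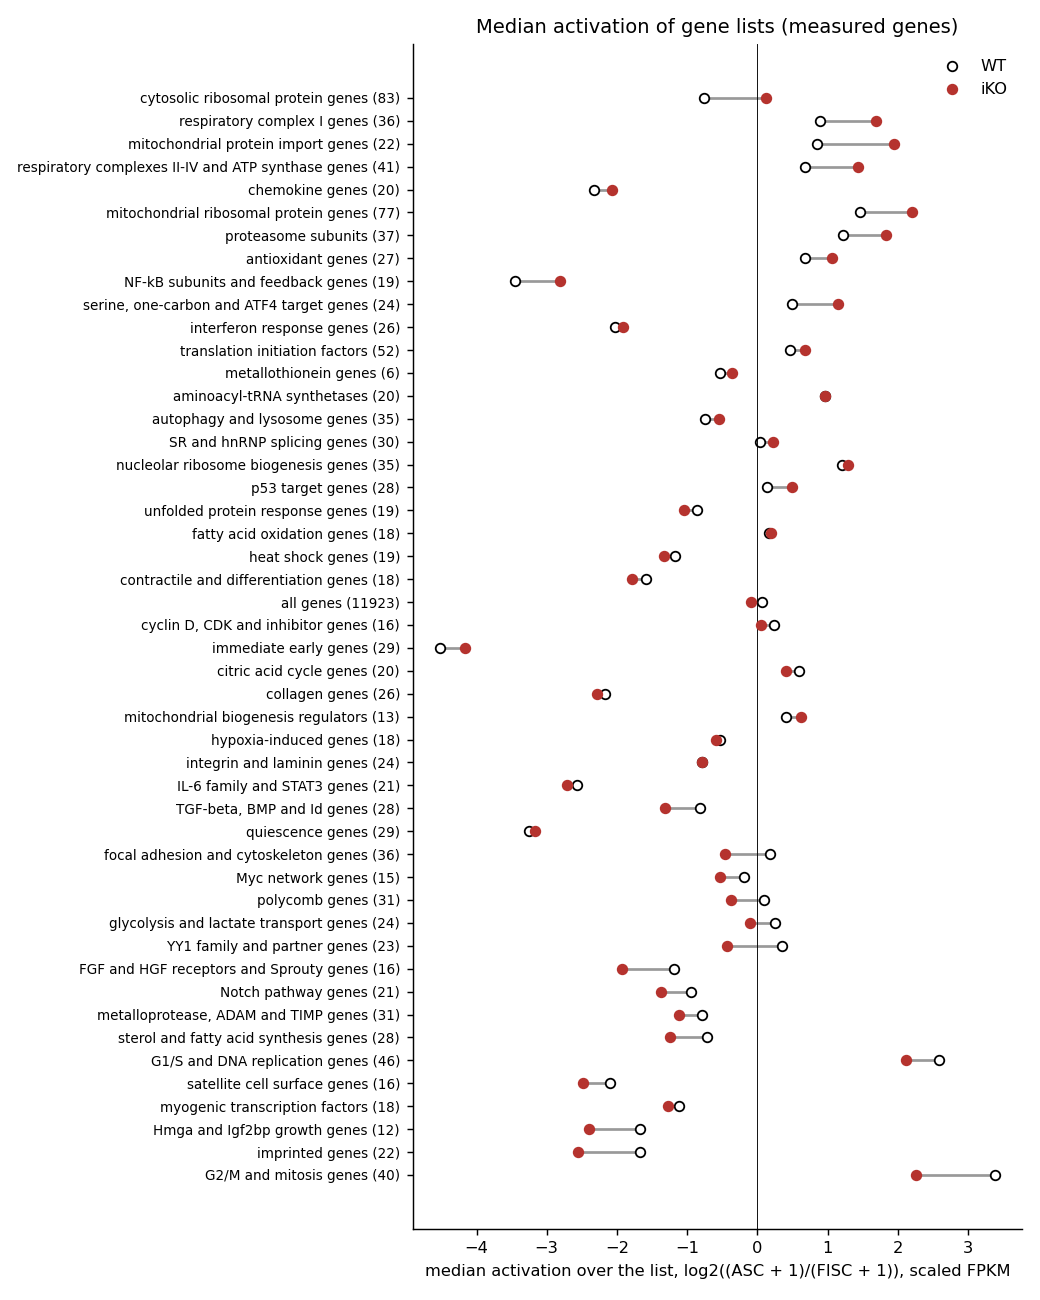
Median activation of each gene list as log2((ASC + 1)/(FISC + 1)) of scaled FPKM, WT as open circles and iKO as filled circles, ordered by the median of the gene-wise differences, with the number of measured genes. Mitochondrial, respiratory and proteasome lists lie further right in iKO, G2/M and imprinted lists lie further left, and immediate early and quiescence lists lie close together.

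A small set changed direction. Glg1, a Golgi glycoprotein, stood at 12.4 and 2.00 in the iKO pair and at 11.3 and 24.5 in the WT pair. Pds5a, a cohesin regulator, stood at 15.1 and 4.06 in iKO and at 13.4 and 34.5 in WT. Eif4ebp2, a repressor of cap-dependent translation, stood at 14.1 and 3.86 in iKO and at 12.4 and 30.2 in WT. The ubiquitin ligase gene Cbl had −1.68 in iKO and 1.16 in WT. In all 4 genes ASC WT was highest and ASC iKO lowest, with the fresh libraries between them. Under median-ratio scaling Glg1 counted as exaggerated downward. Of the 16 genes reversed from higher in WT, 9 shared a listed locus with another symbol. Among them Eif3j1 summed with its copy Eif3j2 was not called, at −0.34 in iKO and −0.33 in WT.

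The differences stood mostly in the cultured libraries. The iKO to WT ratio was at least 2-fold in ASC for 70.6% of the 320 genes weakened upward, 67.5% of the 348 exaggerated upward and 72.6% of the 617 exaggerated downward, beside 13.8% of all genes (5.22% higher and 8.56% lower in iKO). In FISC it was at least 2-fold for 2.19%, 1.15% and 4.21% of these, beside 1.26% of all genes (0.663% higher and 0.595% lower). Genes weakened downward were split, at 47.0% in ASC and 23.5% in FISC. These shares describe the same libraries that defined the classes and are not separate evidence.

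Locus length moved with the difference. In the decile of genes with the shortest listed loci, with a median of 2.86 kb, the median ratio was 0.49 in iKO and 0.02 in WT. In the decile with the longest, with a median of 203 kb, it was −0.90 in iKO and −0.39 in WT. The median difference went from 0.41 to −0.47. Genes exaggerated upward had a median locus of 7.95 kb and those exaggerated downward 62.7 kb, beside 24.9 kb for all genes. Genes weakened upward had 46.1 kb and those weakened downward 9.81 kb. The longest decile thus had a lower median ratio than the shortest in both genotypes, and a lower one in iKO than in WT.

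**Figure D4:**
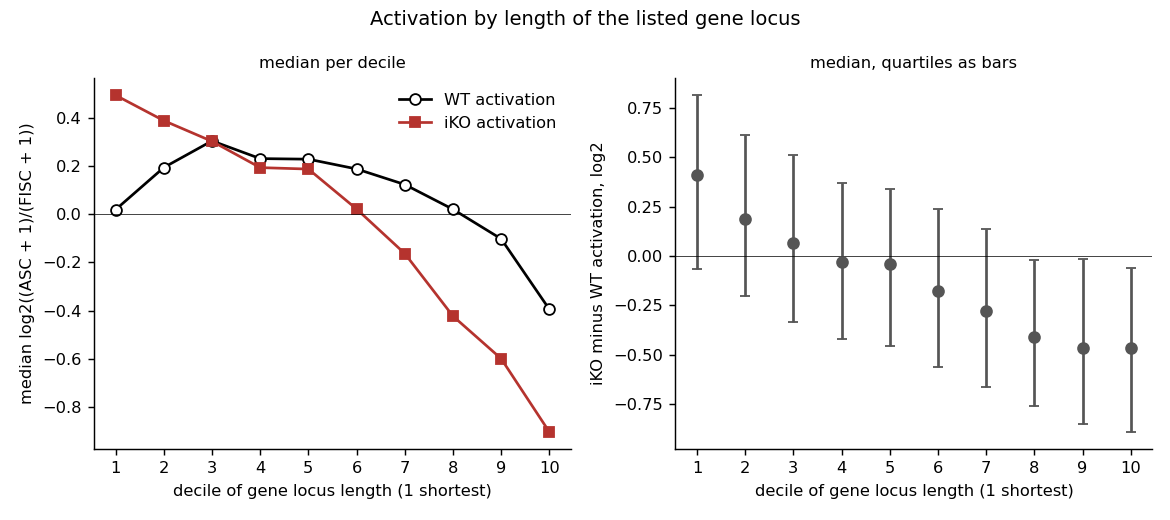
Left, median WT and iKO activation, log2((ASC + 1)/(FISC + 1)), in deciles of locus length. Right, iKO minus WT activation in the same deciles, as medians with quartiles. The difference declines from 0.41 in the shortest decile to −0.47 in the longest.

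Centring each ratio on its median in the gene's length decile moved the list differences in either direction, and that of the unfolded protein response genes turned from 0.00 to −0.12. The median difference of complex I genes went from 0.84 to 0.62, that of the other respiratory complexes from 0.77 to 0.42, that of mitochondrial ribosomal proteins from 0.67 to 0.43, and that of mitochondrial import genes from 0.83 to 0.64. Proteasome subunits went from 0.63 to 0.38 and cytosolic ribosomal proteins from 0.85 to 0.30. G2/M genes went from −0.99 to −1.02 and G1/S genes from −0.58 to −0.67. Imprinted genes went from −0.99 to −0.78 and myogenic factors from −0.67 to −0.79. Collagen genes turned from −0.20 to 0.03. Of the 348 genes exaggerated upward, 144 kept that class after centring, and of the 617 exaggerated downward, 367 did. The part of locus length in these differences was not tested further.

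The scaling of the libraries set how many genes fell on each side. Cytosolic ribosomal protein genes summed to 155164 scaled FPKM in ASC iKO and 78756 in ASC WT, and all genes to 523527 and 384348. The median difference over all genes was −0.13, −0.48 and −0.02 under the 3 scalings, and the median WT ratio was 0.07, 0.48 and −0.04. Under the FPKM sum, 588 of 617 genes exaggerated downward and 320 of 320 weakened upward kept their class, but 92 of 348 exaggerated upward did. Under the median ratio, 347 of 348 exaggerated upward kept theirs.

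Median differences above 0 under each of the 7 alternatives were found for the respiratory, mitochondrial ribosomal, import, proteasome and cytosolic ribosomal lists. The same held for the antioxidant, chemokine, interferon response and immune marker lists, whose lowest values were 0.08, 0.23, 0.01 and 0.09. Nucleolar ribosome biogenesis genes, at 0.10, turned below 0 under FPKM-sum scaling and after centring. The median difference of complex I genes ranged from 0.41 to 0.96 over the 7 alternatives, that of the other respiratory complexes from 0.32 to 0.90, and that of mitochondrial ribosomal proteins from 0.25 to 0.79. Import genes ranged from 0.39 to 0.96, proteasome subunits from 0.21 to 0.74 and cytosolic ribosomal proteins from 0.30 to 0.98. The median differences of translation initiation factors, aminoacyl-tRNA synthetases, the serine and ATF4 target list, NF-kB genes and autophagy genes were above 0 here, at 0.29, 0.24, 0.31, 0.33 and 0.23, but turned below 0 under FPKM-sum scaling.

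**Figure D5:**
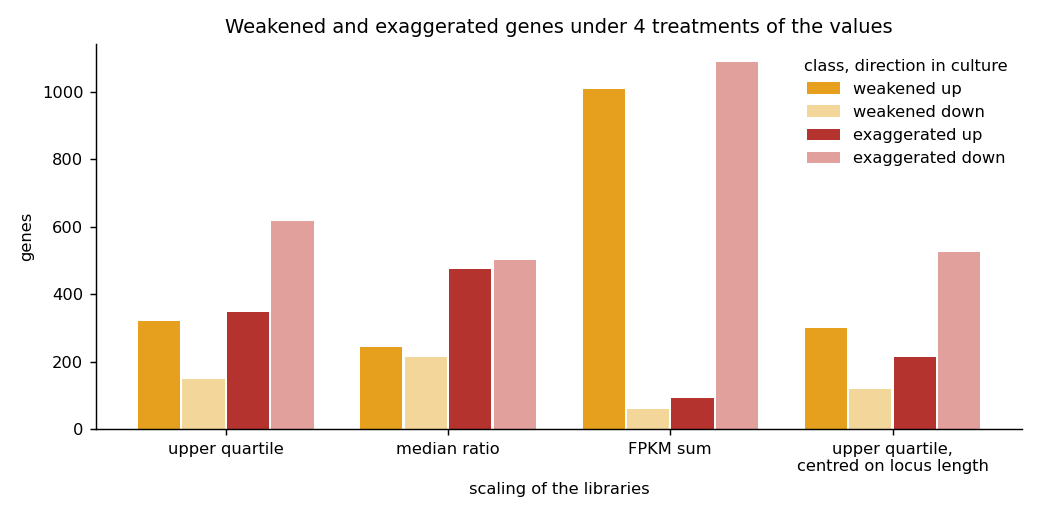
Number of weakened and exaggerated genes (y axis) under upper-quartile, median-ratio and FPKM-sum scaling, and under upper-quartile scaling centred on locus length. Genes exaggerated upward number 348, 474, 93 and 215 in that order, and genes weakened upward 320, 243, 1009 and 301.

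YY1 peaks from activated cells were a readout that the classes did not use. Of all 11923 genes, 5.87% had a deposited peak within 2 kb of either end of the locus. The share was 9.48% (33 genes) for those exaggerated upward, 4.86% (30 genes) for those exaggerated downward, 5.63% (18 genes) for those weakened upward and 4.70% (7 genes) for those weakened downward. It was 6.64% for kept upward and 3.30% for kept downward. Genes with a peak were thus found in every large class, and most genes of every class had none.

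The letters of the YY1 motif were searched in promoter windows from RefSeq (GRCm38.p6), from 250 bases before to 50 after each start, matched by symbol since the tables use mm9. The letters AA, any base, ATGGCG, any base and C, in that order, were searched on both strands and occurred in 1.51% of 32851 promoters. Of the 11923 genes, 9066 matched a window by symbol, and 147 of 558 with a peak (26.3%) held the motif beside 236 of 8508 without one (2.77%). The motif was thus more frequent in genes with a peak, but most genes with a peak lacked it. Of the 383 matched genes with the motif, 236 had no peak. Among matched genes with a peak, the motif stood in 6 of 26 exaggerated upward (23.1%) and 7 of 25 exaggerated downward (28%). It stood in 6 of 14 weakened upward (42.9%), 32 of 93 kept upward (34.4%) and 10 of 48 kept downward (20.8%). The share over all genes with a peak was 26.3%, and whether the classes differ was not tested. The windows below, from 100 bases before to 30 after the start, show that the same letters stand in promoters of genes from opposite classes, with the motif in capitals on either strand, 5′ to 3′ along the gene. They were chosen after the values were seen, and a match is a description of letters and not a binding site.
Mrps18a (chr17:46110904-46111033, plus strand): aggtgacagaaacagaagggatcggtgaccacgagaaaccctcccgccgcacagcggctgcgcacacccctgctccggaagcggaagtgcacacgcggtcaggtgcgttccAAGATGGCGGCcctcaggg
Gtf3c6 (chr10:40257683-40257812, minus strand): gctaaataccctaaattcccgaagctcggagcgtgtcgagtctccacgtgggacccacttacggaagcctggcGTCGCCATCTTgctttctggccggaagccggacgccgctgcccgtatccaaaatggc
Cdk5rap2 (chr4:70410406-70410535, minus strand): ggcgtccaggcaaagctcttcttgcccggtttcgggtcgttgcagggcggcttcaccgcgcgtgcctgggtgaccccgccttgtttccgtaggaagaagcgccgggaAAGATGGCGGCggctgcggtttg
Abl2 (chr1:156558687-156558816, plus strand): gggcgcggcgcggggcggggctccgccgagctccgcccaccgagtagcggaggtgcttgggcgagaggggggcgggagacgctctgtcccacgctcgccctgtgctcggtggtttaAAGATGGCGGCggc
Tmem126b (chr7:90475966-90476095, minus strand): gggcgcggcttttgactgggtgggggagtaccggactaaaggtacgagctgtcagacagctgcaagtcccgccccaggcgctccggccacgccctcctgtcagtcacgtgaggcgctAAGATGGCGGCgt
Mrps18a, of the mitochondrial ribosome, went from 27.4 to 115 in iKO and from 30.2 to 42.0 in WT. Gtf3c6, a subunit of the RNA polymerase III factor TFIIIC, went from 13.7 to 86.5 in iKO and from 10.4 to 30.6 in WT. Both were exaggerated upward. Cdk5rap2, a centrosome protein, went from 6.52 to 1.71 in iKO and from 5.25 to 5.67 in WT. Abl2, a tyrosine kinase of the cytoskeleton, went from 11.1 to 4.02 in iKO and from 9.64 to 10.4 in WT. Both were exaggerated downward. Tmem126b, an assembly factor of complex I, was weakened upward, from 1.03 to 3.75 in iKO and from 0.677 to 8.48 in WT. All 5 genes had a peak within 2 kb, and their iKO activation lay on both sides of WT.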

How the data were processed

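RNA libraries from 2 states and 2 genotypes were compared, with 1 list of YY1 peaks. The authors deposited expression as FPKM, per the file headers, in a table for each state. TopHat2, Cufflinks 2.2.1, MACS2 2.1.0 and mm9 appear in the submitters' processing notes, with no step assigned to them. The authors deposited 2031 peaks with a score, a fold enrichment, a −log10 p and a −log10 q. Only the positions and the −log10 p were used here.

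The tables shared 24066 symbols without Mir762, which was left out, while 138 stood in the FISC table only and 245 in the ASC table only. For 175 symbols the listed locus differed between the tables. Libraries were scaled to the upper quartile (percentile 75) of FISC iKO, over genes with at least 1 FPKM in either library of the genotype. Factors were 0.973 for FISC WT, 0.762 for ASC WT and 0.700 for ASC iKO. Activation was log2((ASC + 1)/(FISC + 1)) for genes with at least 1 scaled FPKM, and a gene was called at 2-fold, with no test. FPKM keeps no depth, but steps among low values put ASC iKO at 1.17 reads per FISC iKO read, with 10.2% of 1051 low genes at that step. In the same way ASC WT stood at 1.78 reads per FISC WT read, and ASC iKO at 0.66 reads per ASC WT read. The part of depth in the differences between genotypes was not tested. The class rules were run on simulated data with little noise and large planted differences in well-expressed genes. That run cannot show how calls near the 2-fold cut behave.

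The comparison and the gene lists were chosen with earlier results of these data known. Genes eligible by name were Yy1, the 10 highest and 10 lowest iKO ratios and the 8 strongest of each class, all with at least 5 scaled FPKM. Also eligible were the 3 highest and 3 lowest of each list by iKO ratio and by difference, and every myogenic, cyclin and glycolysis gene. Marker genes came from their own lists. The promoter examples, Rn45s, Mir762 and the summed copies were chosen after their values were seen. Some eligible genes are not reported here. A gene said to have an overlapping locus shares its listed locus with another symbol and is uncertain. The alternatives were a pseudocount of 0.1, leaving out the filter, raising it to 5 FPKM, scaling to the FPKM sum or by the median ratio, centring on locus length, and leaving out shared loci. For peaks they were a 500 bp window and the 1000 peaks with the highest −log10 p. Python 3.11.15, pandas 2.3.3 and numpy 2.4.6 were used.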

Additional observations from a re-analysis of the deposited data

Results flagged for a closer look

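In 7 named genes the activation ratio was at least 2-fold upward in WT and at least 2-fold downward in iKO, so the only sample pair of each genotype moved the opposite way. With 1 library per group the difference was not tested in any of them. The iKO minus WT difference was −2.84 for Cbl, −2.86 for Eif4ebp2, −2.97 for Pds5a and −3.22 for Glg1, none of which shares its listed locus with another symbol. It was −8.44 for Eif3j1, −6.12 for Rps27 and −4.61 for Apoo-ps, which each share a locus with a near-identical copy. Summed with their copies, these had differences of −0.01, 0.92 and −0.02, and none was reversed. Mir762, a microRNA gene left out of the scaling, was listed at 496241 FPKM in ASC iKO, as deposited, 39.8% of that library's sum, and at 0 in ASC WT.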

How the results depend on the processing

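No paired analysis was possible because each group had 1 library, and for the same reason no library could be left out. A pseudocount of 0.1 gave 562 genes weakened upward, 328 weakened downward, 1178 exaggerated downward, 38 reversed from higher in WT and 13 reversed from lower in WT, beside 320, 149, 617, 16 and 1. A filter at 5 FPKM left 571 intermediate downward genes, beside 885. It also turned the WT median of the myogenic factors from −1.12 to 0.0045. FPKM-sum scaling gave 4025 genes higher in WT activation, beside 2605, with 1009 weakened upward, 60 weakened downward, 93 exaggerated upward, 1087 exaggerated downward, 43 reversed from higher and 2 from lower in WT. Median-ratio scaling gave 2 reversed from lower in WT. Centring on locus length gave 215 exaggerated upward, beside 348, and 3 reversed from lower in WT. Without shared loci, 7 were reversed from higher and 0 from lower in WT. The share of genes with a YY1 peak among those kept downward was 2.25% with the 500 bp window and with the 1000 highest peaks, beside 3.30%. With the 500 bp window it was 3.28% for intermediate downward genes, beside 4.63%. For all genes it was 4.95% and 4.87% in these settings, beside 5.87%. The other 72 gene counts under these alternatives stayed within 1.5 times of those reported. Among list medians 88 values moved and 1063 did not, and among single genes 193 moved and 5347 did not, all 193 with the pseudocount of 0.1. The G2/M medians, 2.26 in iKO and 3.38 in WT, reached 3.53 and 4.71 at most. The cause of the moves was not tested. Depth is unknown, so the precision of low values is too.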
